A study of Musca domestica with 29 samples.

Results

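The male-biased head genes of the house fly (Musca domestica) described here are 132 genes of the 16540 in the deposited head table. A gene was taken if its identifier started with LOC, if it was not assigned to Muller element A or F, if every male head library had a normalized count of at least 20 and lay above every female head library, and if log2((male mean + 1)/(female mean + 1)) was above 1. The values that chose the genes are thus the male and female head values themselves, and everything said below about male against female heads is a description with no test. Of 16443 genes with LOC identifiers, 14136 lay off elements A and F, 8031 of these reached the level in every male head, 634 of these had every male above every female, and 132 passed the ratio. The 8031 genes serve below as the comparison pool. The rule allowed up to 150 genes, and fewer qualified.

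House fly males carry a male-determining locus on a proto-Y chromosome, a young sex chromosome that still resembles the chromosome it arose from. In natural populations this locus sits on the Y chromosome (written YM) or on chromosome III (written IIIM), among other places. Chromosome III is Muller element A and the X chromosome is element F, so the rule leaves out genes on the chromosomes that differ most directly between such males. In insect heads, sex differences are known from the brain, from taste and smell organs and from the fat body around the brain, a store and gland tissue. In Drosophila melanogaster many genes with sex-biased head expression act in that fat body.

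The study set males with different proto-Y chromosomes beside each other in heads and abdomens of individually dissected flies, using poly(A) RNA and a stranded library kit. YM males were of strain IsoCS. YM(III) males were of strain bwbCS, which per the labels carries YM and differs also in a copy of chromosome III. IIIM #1 males were of strain CS and IIIM #2 males of strain CSrab. Each male genotype had 3 libraries per tissue, labelled as biological replicates. The female heads were of IsoCS (replicate 1), CSrab (replicate 2) and CS (replicate 3), and the female abdomens of IsoCS (replicate 1) and CSrab (replicate 2). There were no bwbCS females, and ages are not given in the sources used here. P-values measure the spread between these libraries.

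Depth, as whole reads recovered from the normalized values, ran from 5.8 to 39.24 M reads (megareads) in the 12 male heads and from 28.99 to 29.84 M reads in the 3 female heads. Male abdomens had 0.79 to 43.47 M reads, with YM replicate 2 and IIIM #2 replicate 2 at the lower end, and the 2 female abdomens had 30.53 and 13.9 M reads. Male heads fell apart by replicate number. On the first principal component of the head libraries, with 29.4% of the variance, male replicates 1 and 2 lay between 26.9 and 65.5, male replicate 3 libraries between -70.4 and -28.0, and females between -39.0 and -32.8. Female heads therefore sat with the male replicate 3 libraries on this axis, although the females carried the numbers 1, 2 and 3. In these whole heads and abdomens, fewer cells of a type and less RNA per cell cannot be told apart.

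The difference that defined the genes ranged from 2.01-fold to 159-fold in head means, with a median of 2.58-fold. On the log2 scale the ratios ran from 1.01 to 7.32 with a median of 1.37. Of the 132 genes, 51 had a log2 ratio above 1.5, 17 above 2 and 4 above 3. Most of the set therefore lay near the lower limit, with a long upper tail of few genes. Male-above-female separation of all libraries was met by 763 of the 15597 genes with a read in any head (4.89%), and the 132 genes were 1.64% of the pool. In the pool, 872 genes showed the opposite order, every female head above every male head.

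The gene with the highest ratio was LOC101890728, a protein-coding gene on element E. Its normalized counts in YM male heads were 5085, 5891 and 9065 in replicates 1, 2 and 3. In YM(III) heads they were 7546, 8888 and 10856, in IIIM #1 heads 6137, 4081 and 13855, and in IIIM #2 heads 3236, 2397 and 9714. The female heads had 19.6 (IsoCS), 64.9 (CSrab) and 48.6 (CS). The lowest male library was thus 36.9 times the highest female library, and replicate 3 was the highest library in each male genotype. The male mean was 7229 ± 3388 (SD, n = 12) and the female mean 44.4 ± 22.9 (SD, n = 3).

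LOC101890094, protein-coding and assigned to no element, came second at a log2 ratio of 3.69. Its male heads ran from 23.3 to 121 with a median of 63.5, and its female heads were 3.27, 6.04 and 4.11, so it was a gene of low counts in both sexes. LOC101889840 and LOC109613747, neither of them matched in the reference table, followed at 3.15 and 3.12. LOC101889840 had 107 to 345 in the 8 male libraries of replicates 1 and 2, 22.1 to 37.9 in the 4 of replicate 3, and 13.6 to 18.3 in females. LOC109613747 had 111 to 332, 22.1 to 38.4 and 13 to 18.9 in the same order. In both genes the male replicate 3 libraries were low and lay just above the females.

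The next 8 genes had log2 ratios from 2.31 to 2.61. LOC101901746 (element D) had a male median of 372 (69.3 to 614) and females at 43.2, 54.3 and 63.0. LOC101899619 (element C) had 2831 (1668 to 6050) against 487, 702 and 400. LOC101897133 (not matched in the reference) had 999 (482 to 5026) against 339, 397 and 277. In the first of these the replicate 3 males were the lowest 4 males, and in the last they were the highest 4. LOC101897891 (element C) had 157 (82.9 to 529) against 40.5, 43.0 and 34.2. LOC101894553 (element D) had 232 (69.7 to 317) against 34.7, 41.5 and 36.3. LOC101895987 (element C) had 3755 (1503 to 7697) against 678, 813 and 791. Females varied little among themselves in these 3 genes, while males spread several-fold. LOC101895970 (element B) had 4004 (2201 to 10777) against 965, 1254 and 820. LOC101897932 (element D) had 548 (360 to 899) against 81.8 to 159, and its replicate 3 males lay within the range of the others.

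**Figure D1:**
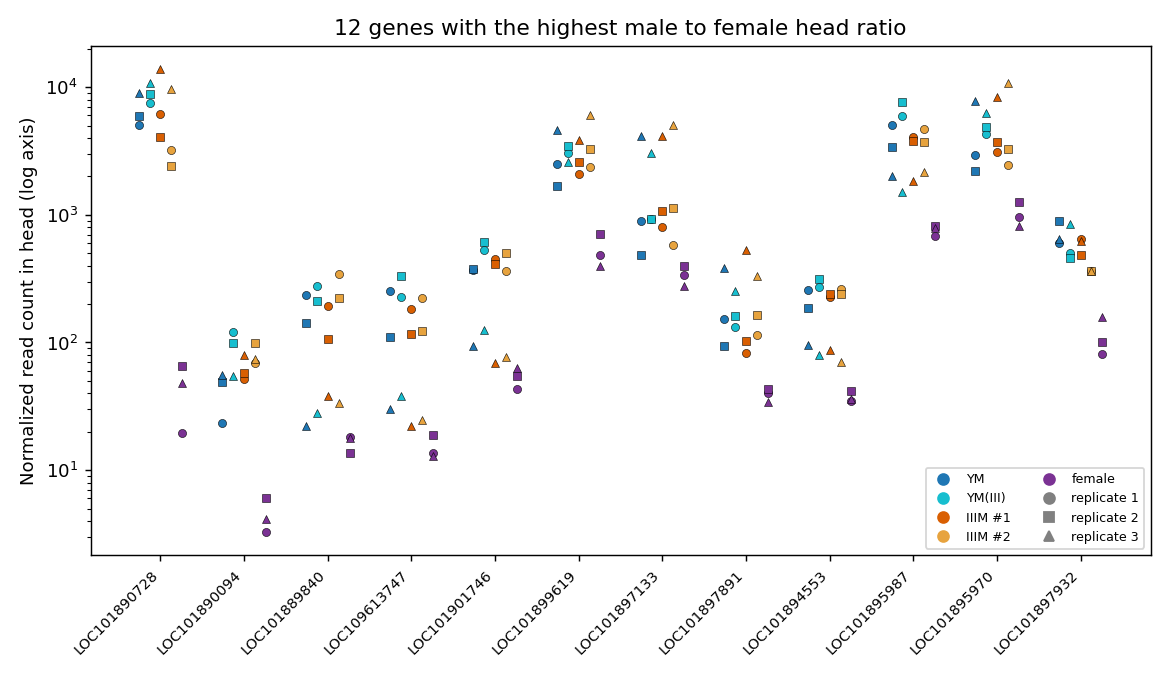
Normalized read counts (vertical, log axis) of the 12 genes with the highest male to female head ratio, 1 point per head library, with colour for the genotype or females and marker shape for the replicate number. No male point falls to the female points, which the rule required; for LOC101889840 and LOC109613747 the replicate 3 males lie close above them.

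At the lower limit, the last genes inside were LOC101901165, LOC101892893 and LOC105261657, each at a log2 ratio of 1.01. The next genes by ratio were LOC101901630 at 1.00, just under the limit, LOC101890483 at 1.00 and LOC101895767 at 0.99. Other genes missed through overlap. LOC101897359 had a log2 ratio of 1.26, with its lowest male at 189.9 and its highest female at 190.2. In all, 200 genes of the pool had a log2 ratio above 1 but overlapped between the sexes, and 19 genes missed only the level of 20.

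The male libraries varied more among themselves than the ratio alone shows. The coefficient of variation over the 12 male heads had a median of 29.0% (13.3% to 85.9%), against 26.0% over the pool, and the highest male was 1.52 to 15.6 times the lowest. Set against the female mean, the genes' median log2 difference was 1.12 to 1.49 in the 8 male libraries of replicates 1 and 2 and 1.08 to 1.37 in the 4 of replicate 3, while the median over all tested genes lay between -0.06 and 0.02 in every male library. In the mean of replicates 1 and 2, 111 of the 132 genes were more than 1 above the females on the log2(value + 1) scale, in the mean of replicate 3 it was 92, and in both it was 71. The rule put every male library above the females and required a log2 ratio above 1 over all males. Many genes lay near that limit. These counts alone therefore do not show that the male excess differed by replicate, and the test of replicate 3 is given below.

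**Figure D2:**
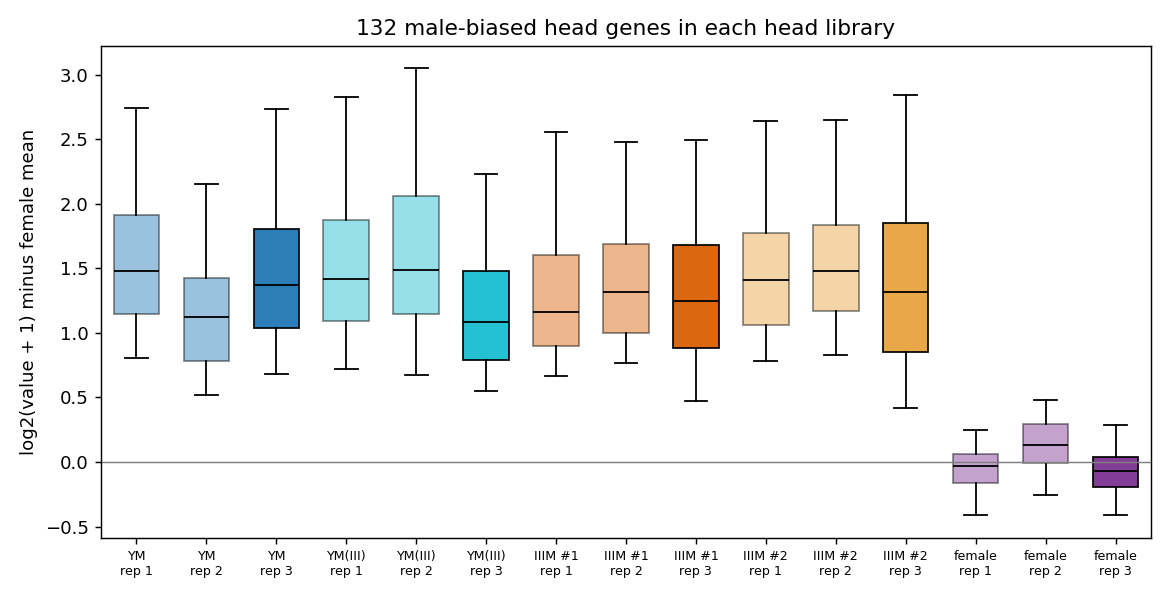
Log2 difference of each of the 132 genes from the female head mean, by head library; boxes span the quartiles and whiskers the 5th to 95th percentile, and replicate 3 boxes are in solid colour. Male medians lie between 1.08 and 1.49 and female medians between -0.07 and 0.13.

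Among female heads, the CSrab library had the highest value of the 3 for 77 of the 132 genes (58.3%, against 38.4% of the pool), the CS library for 30 and the IsoCS library for 25. Strain and replicate number cannot be told apart here, because each strain gave 1 female head. The genes were spread over the remaining elements much as the pool was. Element B held 28 (21.2%, pool 17.9%), C 31 (23.5%, pool 22.0%), D 19 (14.4%, pool 19.0%) and E 30 (22.7%, pool 25.6%), and 24 had no element (18.2%, pool 15.5%).

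Of the 132 genes, 104 (78.8%) matched the RefSeq gene table used for gene types, against 91.0% of the pool, and no gene of the 132 had a symbol other than its LOC identifier. Of those matched, 96 were protein-coding, 7 were long non-coding RNAs (6.73%, against 1.86% of the matched pool) and 1 was listed as another RNA. Gene types are therefore known for fewer than 80% of the genes, and their shares cannot be taken for the whole set. Which products the genes encode was not analysed here. Whether the reads were counted by strand is not stated, so overlapping and antisense genes are uncertain.

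Few of the 104 placed genes were neighbours in the reference annotation. Within 10 genes of each other lay 7 pairs, involving 12 genes, and 2 pairs were adjacent. The longest run held 4 of them, LOC101896857, LOC101887427, LOC101899829 and LOC101894322, with log2 head ratios of 1.07, 1.02, 1.59 and 1.23. Genes between them in that run were not male-biased in the same way: LOC101891902 had a log2 ratio of -0.61, LOC101897371 of -0.92 and LOC101887603 of 0.21. The adjacent pair LOC101892111 and LOC101891823 on element C had ratios of 1.12 and 1.58. Between LOC101890295 (1.18) and LOC101890636 (1.08), also on element C, lay LOC101890468 at 0.57, LOC101893624 at -1.07 and LOC101890177 at -1.54.

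Whether the genes depended on the male's proto-Y chromosome was asked among the 12 male heads, a contrast that the rule did not use. With limma on log2(value + 1) and Benjamini-Hochberg adjustment, none of the 132 genes passed an adjusted p of 0.05 for the pooled YM and YM(III) males against the pooled IIIM males, where 0.473% of all 12060 tested genes did. At an unadjusted p under 0.05 there were 3 of them (background 4.86%), and edgeR and DESeq2 called 0. YM against YM(III) also gave 0 (background 0.804%), with 4 at an unadjusted p under 0.05 (background 7.68%), 0 by edgeR and 1 by DESeq2, LOC101894234. IIIM #1 against IIIM #2 gave 0 (background 0.174%), with 12 at an unadjusted p under 0.05 (background 4.44%) and 0 by edgeR and by DESeq2. With so low a background of adjusted calls, 0 of 132 is not a result particular to these genes. These fits had no term for the replicate number, by which male heads fell apart. With a replicate block the adjusted calls stayed at 0 of 132 in all 3 comparisons. In the same order, 1.04%, 3.57% and 0.307% of all genes then passed. At an unadjusted p under 0.05 the block gave 13, 12 and 20 of the 132, against 1321, 2417 and 1121 of all 12060 genes.

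Means over the 4 genotypes were alike in size. The median log2 excess over the female mean was 1.31 in YM, 1.36 in YM(III), 1.27 in IIIM #1 and 1.41 in IIIM #2 heads, and 79 genes were above 1 in every genotype. IIIM #2 had the highest genotype mean for 57 of the 132 genes and IIIM #1 the lowest for 44. The same counts were not made over the pool, so whether they are particular to these genes is not known. In the fit of IIIM #1 against IIIM #2, the median log2 difference was -0.15 over the 132 genes and 0.04 over all genes tested.

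Calls appeared when replicate 3 was left out, and they were chosen for naming after their values were seen. In replicates 1 and 2 alone, 4 genes passed for the proto-Y types (3.03%, background 4.65%), all higher in YM types: LOC101894727 (log2 0.62), LOC101901006 (0.68), LOC101890728 (0.84) and LOC109614355 (0.56). YM against YM(III) then gave 8 (6.06%, background 10%), of which 7 were lower in YM, among them LOC101894234 at -1.52 (adjusted p = 0.00223, limma), and LOC101891607 was higher at 1.83 (adjusted p = 0.012, limma). IIIM #1 against IIIM #2 gave 5 (3.79%, background 4.05%), all lower in IIIM #1, with LOC101892056 at -1.16 (adjusted p = 0.00699, limma). With both directions counted, all 3 shares were below those of all genes, and these fits rest on 2 libraries a group. By direction, the shares higher in YM types were 3.03% of the 132 and 2.72% of all genes, and lower 0% and 1.94%. Lower in YM than in YM(III) were 5.3% and 4.67%, and higher 0.758% and 5.37%. Lower in IIIM #1 than in IIIM #2 were 3.79% and 1.36%, and higher 0% and 2.69%. In the direction of most calls the 132 genes were thus above all genes. In the authors' deposited table, 21 of the 132 genes passed between CSrab and CS male heads, 18 of them higher in CSrab. Of all 12409 genes with an adjusted p there, 739 passed (5.96%), a smaller share than among the 132. That table called 8 between bwbCS and IsoCS heads (all genes 7.37%), 2 between CS and IsoCS (3.18%) and 5 between CSrab and IsoCS (4.24%). Which libraries entered the authors' comparisons was not established here. Their calls and those of the fits above may therefore rest on different libraries.

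The replicate split itself was tested within male heads, with genotype as a term. Replicate 3 libraries were higher than replicates 1 and 2 for 29 of the 132 genes (22.0%, background 24.6%) and lower for 34 (25.8%, background 24.4%), by limma at an adjusted p of 0.05. The share of genes that moved was thus close to that of all genes. Of the 12 genes with the highest head ratio, 5 were higher and 5 lower in replicate 3. That is a larger share than the 47.7% of the 132 and the 49.0% of all genes called in either direction. The ratio that ranked these 12 genes used the means of the same male heads. Their share is therefore a description and cannot be read against the background. The labels do not say what set replicate 3 apart.

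LOC101901746 had the smallest p. Its replicate 3 heads had 93.6, 126, 69.3 and 77 in YM, YM(III), IIIM #1 and IIIM #2, and the 8 other male heads 365 to 614, a log2 difference of -2.31 ± 0.14 (SE; adjusted p = 2.18e-06, limma). LOC109612010, not matched in the reference, had 684, 582, 624 and 599 against 1403 to 2428, a difference of -1.45 ± 0.12 (SE; adjusted p = 1.32e-05, limma). In these genes the replicate 3 males approached the females, which had 43.2 to 63.0 and 382 to 493. LOC101897635 (element C) went the other way, with 3943, 2706, 3650 and 3976 against 1202 to 1883, a difference of 1.28 ± 0.12 (SE; adjusted p = 1.94e-05, limma). LOC101889840, given above, differed by -2.75 ± 0.27 (SE; adjusted p = 2.43e-05, limma). In all 4 genes the replicate 3 males did not overlap the other males.

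The 29 genes higher in replicate 3 had a median log2 excess over females of 0.98 in replicates 1 and 2 and 1.85 in replicate 3. For the 34 lower genes the medians were 1.86 and 0.82, and for the 69 uncalled genes 1.29 and 1.18. Of the called genes, 17 higher ones (12.9% of the 132, background 13%) and 21 lower ones (15.9%, background 13.7%) had no overlap between replicate 3 and the other male libraries. Because groups of genes were formed on this split, these medians are a description.

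**Figure D3:**
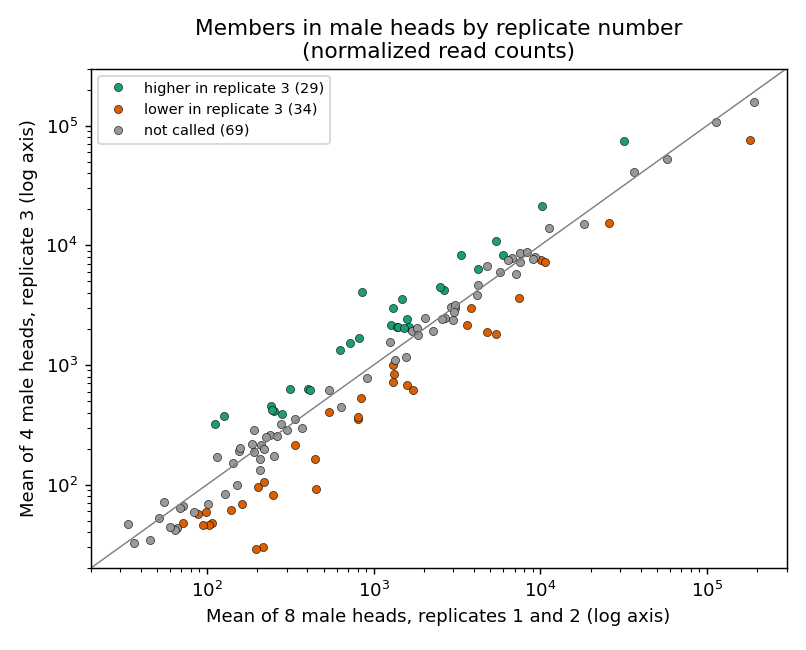
Mean normalized count of the 4 male replicate 3 heads (vertical, log axis) against that of the 8 male heads of replicates 1 and 2 (horizontal, log axis), 1 point per gene for the 132 genes, coloured by the replicate 3 call, with the line of equal values. The 29 higher genes lie above the line and the 34 lower genes below it.

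The most alike pair of the 132 was LOC101894553 and LOC109612010 (Pearson r of 0.98 over 12 libraries, log2 scale), both lower in replicate 3. Of all 8646 pairs, 161 had r above 0.9, and the median was 0.14. The 12 points share their libraries and the replicate split, and the correlations are a description.

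The abdomen gave a comparison of the sexes that the rule did not use. A filter of at least 10 in at least 3 libraries can be met only with male libraries here, since there were 2 female abdomens, so the fit without that filter comes first. Male abdomens were higher for 64 of the 132 genes (48.5%) and lower for 10 (7.58%), by limma at an adjusted p of 0.05. Over all 15749 genes fitted, 28.4% were higher in males and 25% lower, and over the pool 32.0% and 34.6%. The median log2 difference was 1.97 over the 132 genes and 0.33 over all genes. By library, 51 of the 132 genes had every male abdomen above both females (38.6%, against 22.9% of all genes with a read and 28.2% of the pool). For 9 every male was below both females (6.82%, against 23.8% and 33.4%).

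With the filter, 99 of the 132 genes were tested and 33 were not, and 62 were higher and 10 lower in males (backgrounds 39.0% and 32.4%). Those counts rest on genes that passed largely through males. Of the 62, 34 were also called both without female replicate 1 and without female replicate 2. Without female replicate 1 the count of higher genes was 38 (38.4% of those tested, all genes 30.9%), and without female replicate 2 it was 40 (40.8%, all genes 29.7%). Among the 132, 16 had no read in either female abdomen, and 4 of those had a read in every male abdomen. Normalization moved all genes as well: the median log2 difference of all tested genes was 0.42 with the deposited scaling and 0.34 with TMM factors.

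LOC101894727 (element E, not matched in the reference) had the largest abdomen difference. Male abdomens ran from 1091 to 5423 with a median of 2987, and the females had 4.26 (IsoCS) and 4.92 (CSrab), a log2 difference of 9.06 ± 0.49 (SE; adjusted p = 5.65e-08, limma). In heads the same gene had 965 to 2784 in males and 575 to 775 in females, a log2 ratio of 1.21. Its head ratio was among the smaller ones, while its abdomen difference was the largest of the 99.

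LOC101890728, first in heads, came second in abdomens. Its male abdomens had 53.6 to 824 with a median of 121 and the females 0.655 and 0.894, a log2 difference of 6.55 ± 0.92 (SE; adjusted p = 5.62e-05, limma). LOC101888654 (element D) had 96.7 to 170 in males and 2.95 and 0 in females, a difference of 5.95 ± 0.42 (SE; adjusted p = 3.69e-07, limma). LOC101890249 (element B) had 289 to 2999 against 25.4 and 15.2, a difference of 5.84 ± 0.86 (SE; adjusted p = 8.03e-05, limma). LOC101891291 (element E) had 144 to 649 against 7.70 and 4.47, a difference of 5.59 ± 0.52 (SE; adjusted p = 2.43e-06, limma). In each of these genes the lowest male abdomen lay above the higher female.

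Of the 12 genes with the highest head ratio, LOC101897932 (5.48), LOC101901746 (5.21), LOC101897891 (5.03), LOC101895970 (3.10), LOC101899619 (3.08) and LOC101889840 (3.02) were also called higher in male abdomens, in log2 difference by limma. LOC101889840 was listed at 0 in both females and in 1 male abdomen (YM replicate 2), and its call was lost without either female library (adjusted p = 0.111 and 0.108, limma). LOC101895987 had 2.05 ± 1.22 (SE; adjusted p = 0.146, limma) and did not pass. LOC101890094, LOC109613747, LOC101897133 and LOC101894553 had at most 17.6 in any abdomen library.

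Genes with the opposite order in the abdomen were few. LOC101896548 (element E) had 4.02 to 20.8 in male abdomens and 108 and 165 in females, a log2 difference of -3.70 ± 0.52 (SE; adjusted p = 5.61e-05, limma), although its male heads had 107 to 279 against 61.6 to 77. LOC101901167 (no element) had 70.9 to 317 against 1346 and 1584, a difference of -3.35 ± 0.29 (SE; adjusted p = 1.35e-06, limma). LOC101895317 (element E) had 3.83 to 789 against 1356 and 868, a difference of -3.04 ± 0.93 (SE; adjusted p = 0.0113, limma). Its call was lost without either female library (adjusted p = 0.0511 without replicate 2 and 0.1 without replicate 1, limma). LOC101896450 (element C) had 49.8 to 160 against 330 and 247, at -1.57 ± 0.28 (SE; adjusted p = 0.000307, limma), and LOC101891627 (element C) had 41.6 to 107 against 199 and 177, at -1.34 ± 0.32 (SE; adjusted p = 0.00255, limma). In all 5 genes every male abdomen lay below both females while every male head lay above every female head.

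**Figure D4:**
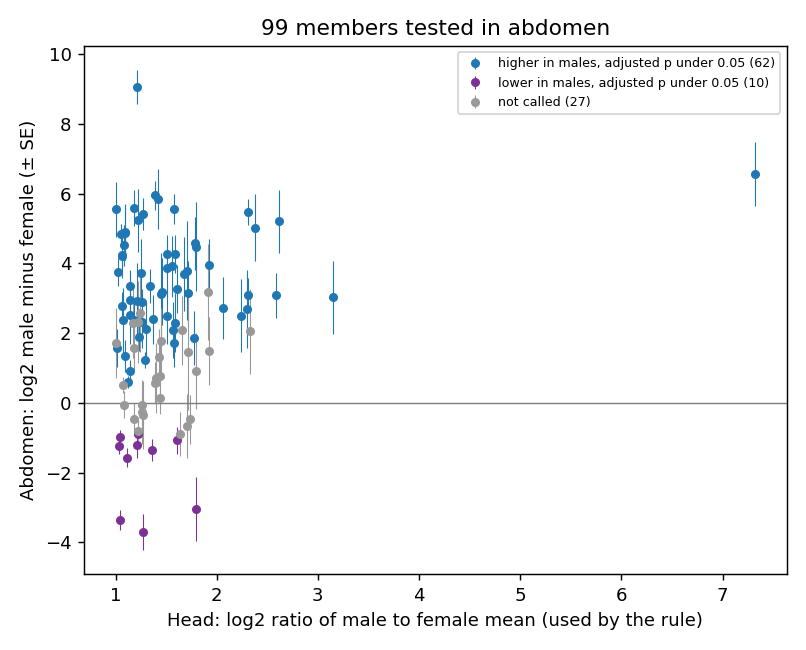
Male minus female log2 difference in the abdomen (limma, ± SE) against the log2 head ratio that chose the genes, for the 99 genes that passed the abdomen filter. Points above 0 on the abdomen axis predominate. Called higher were 62 (62.6%, all tested genes 39.0%) and called lower 10 (10.1%, all tested genes 32.4%). Female libraries alone could not meet the filter, so these counts rest on genes that passed largely through males.

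Of the 7 long non-coding RNAs, 2 were tested in the filtered fit of male against female abdomens. There 0 passed in either direction, where 39.0% of all tested genes were higher and 32.4% lower in males. With 2 genes tested, no share can be read from this.

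Some markers of other cell types moved with sex in the abdomen, given here in CPM, the reads of a gene per megaread of its library. The neuronal sodium channel gene para-like had 57.0 to 396 in male abdomens and 5.25 to 14.2 in females. The acetylcholine receptor gene nAChRbeta3 had 3.08 to 25.4 against 0.216 to 0.753, the neuropeptide gene pdf 0 to 1.27 against 0 to 0.0655, and the GABA receptor gene MdRdl 0 to 0.117 against 0. The egg gene bcd had 0 to 0.529 in males and 12.6 to 36.2 in females, and the yolk protein gene yp3 5.44 to 103 against 396 to 697. Of the 4 neuron markers, para-like and nAChRbeta3 were thus higher in every male abdomen than in either female, while pdf and MdRdl were at or near 0 in both sexes and overlapped. The egg marker and the yolk marker were lower in every male abdomen than in either female. In heads the ranges of all 4 neuron markers overlapped between the sexes. Male head medians were above female ones for pdf (54.8 against 28.0) and MdRdl (6.40 against 0.931). They were close for nAChRbeta3 (28.4 against 26.4) and below for para-like (184 against 217). Between tissues, male medians in heads and abdomens were 184 and 183 for para-like and 28.4 and 12.7 for nAChRbeta3. They were 54.8 and 0.493 for pdf and 6.40 and 0 for MdRdl. Para-like was thus about as high in male abdomens as in male heads, and whether it marked neurons in the abdomen was not tested. In heads bcd was listed at 0 in all males, and yp3 had 1.26 to 6.66 in males and 27.8 to 327 in females. A different mix of organs and a change within organs cannot be told apart, and the part of these markers in the abdomen counts was not tested. The markers pdf, nAChRbeta3 and MdRdl were picked after the tables were seen, and no named testis or male accessory gland marker was found by symbol.

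Most of the 132 genes had more of their reads in male heads than in male abdomens. Since the tables were normalized separately, each library was scaled to CPM, no test was run, and the rule already required a minimum level in every male head. The rule also chose the 132 genes, but not the pool, for male head values above the female ones. The same male head values enter here, so the shares beside the pool are a description. Every male head lay above every male abdomen for 89 of the 132 (67.4%, against 26.9% of the pool and 17% of all genes), and every male head lay below every male abdomen for 1, LOC101892088 (0.758%, against 3.9% and 6.64%). The median log2 ratio of head to abdomen in males was 3.25, against 0.62 over the pool, and 122 of 132 had the higher mean in heads, against 5448 of 8023 pool genes. LOC101897133 averaged 98.5 CPM in male heads and 0.844 in male abdomens. LOC101895987 averaged 179 and 3.33, and LOC101895970 averaged 250 and 5.79. LOC101894727 had the reverse order of means, at 79.4 in heads and 438 in abdomens, with some overlap between libraries.

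**Figure D5:**
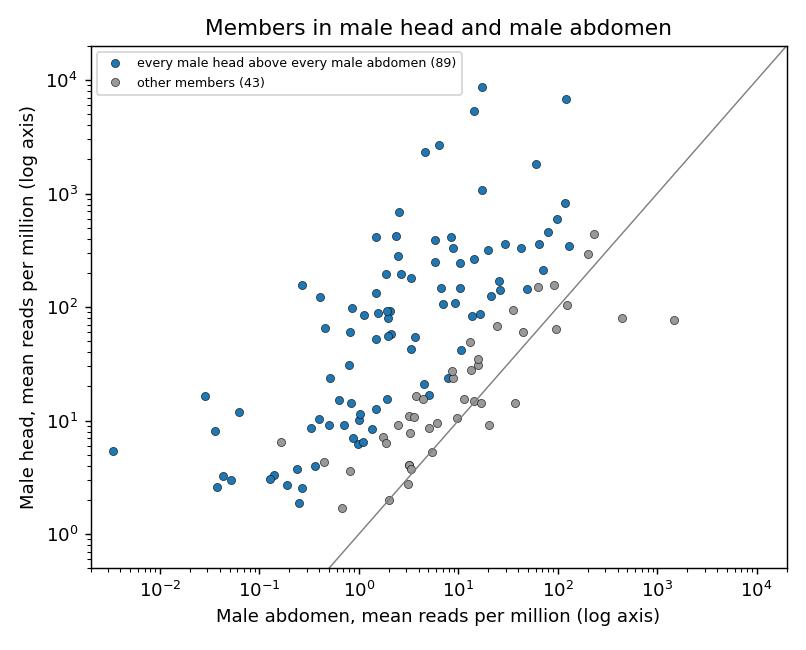
Mean CPM in male heads (vertical, log axis) against mean CPM in male abdomens (horizontal, log axis) for the 132 genes, with the line of equal values; the 89 genes with every male head above every male abdomen are in blue. 122 genes lie on the head side of the line.

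Among male abdomens, none of the 98 tested genes passed for the pooled YM and YM(III) males against IIIM males (background 0.0265%) or for IIIM #1 against IIIM #2 (background 0.0441%), by limma. In each of these comparisons 2 genes had an unadjusted p under 0.05 (backgrounds 6.41% and 3.28%), and edgeR and DESeq2 called 0. YM against YM(III) gave 9 higher in YM (9.18%, background 7.56%) and 1 lower (1.02%, background 1.68%). These shares were near those of all genes, while the share of the pool was 3.74% higher in YM and 1.59% lower.

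The lower gene was LOC101892056, a long non-coding RNA on element B. YM abdomens had 0, 0 and 1.18 and YM(III) abdomens 11.1, 27.0 and 11.0, a log2 difference of -3.62 ± 0.63 (SE; adjusted p = 0.00814, limma). A single read was worth 7.66 in the shallow YM replicate 2, so the 0 there says little. Its IIIM abdomens had 9.24 to 25, so the YM libraries were the low ones. LOC101899619 had 1749, 2243 and 1042 in YM and 94.1, 322 and 23.0 in YM(III), a difference of 4.15 ± 0.73 (SE; adjusted p = 0.00891, limma). LOC101892893 had 268, 253 and 159 against 13.8, 40.5 and 1.64, a difference of 4.24 ± 0.86 (SE; adjusted p = 0.0159, limma). LOC101897777 had 34.0, 23.0 and 33.3 against 5.54, 0.965 and 2.74, a difference of 3.08 ± 0.67 (SE; adjusted p = 0.0199, limma). YM and YM(III) abdomens did not overlap in these genes.

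The count for YM against YM(III) in abdomens depended on single libraries. It was 2 without YM replicate 1, 2 without YM replicate 2, 4 without YM(III) replicate 3, 5 without YM(III) replicate 1 and 0 with the 6 libraries of these genotypes alone. The share of all genes called fell in the same fits, from 9.23% to 2.27%, 3.05%, 4.5%, 4.65% and 2.8%. In the authors' deposited table, 6 of the 132 genes passed between bwbCS and IsoCS male abdomens, all lower in bwbCS (1159 of the 11533 genes with an adjusted p). That table called 2 between CS and IsoCS (4.94%), 5 between CSrab and IsoCS (5.13%) and 2 between CSrab and CS (1.87%). Which libraries entered these comparisons was likewise not established here.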

How the data were processed

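Poly(A) RNA of heads and abdomens was sequenced in 29 libraries. The submitters' processing notes list DESeq2 1.16.1, HTSeq 0.9.1, HISAT2 0.12.2 and CASAVA 1.8, with no genome build stated. Per the file headers, the authors deposited normalized counts per gene and library, a signal with 1 scaling factor per library, in 1 table per tissue. For each of their own comparisons the authors deposited log2 fold changes with adjusted p-values; their mean columns were not used. The normalized counts were whole multiples of 1 read's value (100% of values, tolerance 0.001 reads), which gave the depths.

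A count test had been planned for raw counts. Because the values were normalized, limma 3.58.1 (R 4.3.3) was fitted to log2(value + 1) with a variance trend and robust moderation, over genes with at least 10 in at least 3 libraries, with Benjamini-Hochberg adjustment over all tested genes, two-sided, called under 0.05. Log2 differences understate changes of low genes. Fits were tested on simulated data. Alternatives were edgeR 4.0.16 and DESeq2 1.42.0 on recovered reads, TMM factors, other filters and pseudocounts, a replicate block and left-out libraries. Those without both shallow abdomen libraries, with 1 male genotype alone, and all repeats of the gene rule were chosen after seeing the data. In heads, same-numbered male libraries deviated together (lowest r of 0.319, 0.287 and 0.463 for replicates 1, 2 and 3), so the numbers were taken to pair them. Apart from the test of replicate 3 itself, the main fits had no replicate term, and the block was run only as an alternative.

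The genes, lists and tests were chosen with earlier results of these data known. Named genes were the 12 with the highest head ratio, those next to the limit, the 5 called with the largest and the 5 with the lowest abdomen difference, the 4 with the smallest p in each other test, and the runs of neighbours. Lists by product name could not be applied, as the reference gives no product names. Plots used Python 3.11.15 and matplotlib 3.10.9.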

Additional observations from a re-analysis of the deposited data

Results flagged for a closer look

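In 9 of the 132 genes the sexes had opposite orders in the 2 tissues: every male head lay above every female head, and every male abdomen lay below both female abdomens. The head order was required by the rule, and the difference between tissues was not tested. That abdomen order was met by 6.82% of the 132 genes, against 23.8% of all genes with a read and 33.4% of the pool. It was thus rarer among the 132 than among genes at large. The log2 differences in the abdomen, male minus female, were -3.70 for LOC101896548, -3.35 for LOC101901167, -3.04 for LOC101895317, -1.57 for LOC101896450, -1.34 for LOC101891627, -1.24 for LOC101896993, -1.07 for LOC101901226, -0.97 for LOC101894300 and -0.90 for LOC101901006. LOC101896993 had 230 to 401 in male abdomens and 916 and 589 in females. LOC101901226 had 88.0 to 302 against 338 and 302, where the highest male came within 0.4 of the lower female. LOC101894300 had 144 to 249 against 351 and 403, and LOC101901006 had 376 to 694 against 955 and 992.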

How the results depend on the processing

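For 25 gene results, 604 of 628 alternatives kept the direction and side of the threshold, 21 lost the call, 3 gained it and 0 changed direction; 17 results kept both throughout. The count of genes higher in male abdomens, 62 of 99 tested (all genes 39.0%), became 31 of 52 with a mean of at least 50 (all genes 36.0%), and 38 of 69 with YM (37.3%), 32 of 64 with YM(III) (32.9%) and 36 of 63 with IIIM #1 males alone (35.9%), fits that tested fewer genes. It ranged from 38 to 67 with 1 library left out (all genes 29.7% to 39.9%). The 10 lower genes became 6 with YM males alone (all genes 32.3%) and ranged from 8 to 10 with 1 library left out (25.8% to 33.1%). In heads, replicates 1 and 2 alone gave 4 calls for the proto-Y types, 8 for YM against YM(III) and 5 for IIIM #1 against IIIM #2, against 0 in each, where 4.65%, 10% and 4.05% of all genes passed; leaving out 1 library gave 0 to 1 for YM against YM(III), the 1 without YM(III) replicate 3, and DESeq2 gave 1. The replicate block gave 0 in all 3 head comparisons. For YM against YM(III) abdomens, 10 calls (all genes 9.23%) became 5 with a mean of at least 50 (8.06%) and 17 with the replicate block (21.0%). They became 0 with the compared groups only (2.8%) and 2 without both libraries under 1 M reads (2.22%). With 1 library left out there were 2 to 11 (2.27% to 11.6%), so the counts moved with those of all genes. Abdomen libraries of the same number were less alike than in heads (lowest r of 0.0686, 0.159 and 0.324 for replicates 1, 2 and 3). As in heads, 10 of 12 lay closest to one of their own number, so a pairing in abdomens was left undecided. For the sexes in abdomens, the block gave 75 higher and 11 lower of 99 tested (all genes 42.4% and 35.5%). The cause of the other changes was not tested. The gene rule itself took 455 genes with male replicates 1 and 2 only (113 of the 132 among them), 454 with male replicate 3 only (94), 516 with replicates 1 and 2 of both sexes (107), 129 with TMM factors (127), and 131 to 183 with 1 library left out. Fewer libraries make the rule easier to meet. The 2 female abdomens and the 2 male abdomens of 0.79 M reads limit the abdomen values.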
